A study of Homo sapiens with 4 samples.

Results

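The regions described here are stretches of chromatin away from gene starts that were accessible in every library of the study, with and without oncogenic HRAS. ATAC-seq, which marks accessible DNA by where the Tn5 transposase cuts it, was performed on 4 libraries, 2 of MCF10A (genotype label "Parental"), an immortalized and nontransformed human breast epithelial line, and 2 of the same line carrying HRAS G12V (genotype label "H-RAS Gv12"), called G12V here. HRAS G12V had been delivered by lentiviral transduction of the vector pWZL hygro HRas V12, together with a GFP vector and followed by hygromycin selection, and nothing in the sources states that G12V was a single clone. Both groups were grown in the same medium, which contained EGF, so both groups were exposed to that growth factor. The lists held between 12902 and 46698 peaks, with the shortest lists in replicate 1 of each group, and the number of peaks stands in for depth because read numbers are unknown.

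A member was chosen on measured values: peaks of the 4 lists sharing 1 bp or more were joined, and a joined region was kept if every list had a peak in it and it stayed clear of gene starts (protein-coding and lncRNA), that is of the 1000 bp before and the 500 bp after each. This left 2390 of 60886 merged regions (3.93%), which is 4.82% of the 49568 distal regions and 47.0% of the 5090 regions open in all 4 libraries. The other 2700 regions open in all 4 lay at promoters. Because the rule asked for a peak in every list, presence of a peak is no finding, and the values that follow are the ranks of the peaks, their sequence and their position. Members just inside the rule had scores close to the floor of the peak caller, with lowest scores of 40.02 in MCF10A replicate 1 and 40.17 in G12V replicate 2. Just outside it were 4949 distal regions with a peak in 3 of the 4 lists, of which 2558 lacked one only in MCF10A replicate 1 and 2171 only in G12V replicate 1, against 176 and 44 for the replicate 2 lists. The member closest to an annotated start lay 534 bp from it.

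As background, distal accessible regions are mostly enhancers, insulators and other switches that transcription factors hold open. AP-1, a dimer of JUN and FOS family proteins, is a main factor of this kind in epithelial cells and lies downstream of RAS and ERK signalling. CTCF marks insulators and loop anchors, RUNX and TEAD factors act at epithelial enhancers, the latter with the cofactor YAP, and p53 is activated by stress, oncogenic signalling included.

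Windows of 150 bp show what these regions look like in sequence. Each is the plus strand of hg19 at the midpoint of the region's best-ranked peak, with matches to the searched motifs in capitals. The first 3 are the members with the highest ranks in all 4 lists, the next 3 and the 3 after them changed most upward and most downward in rank between MCF10A and G12V, and the last is the best-ranked member with a match for p53. Matches for AP-1 are shown in the window distal to SOX9.
Highest ranked, chr21:9826508-9826657: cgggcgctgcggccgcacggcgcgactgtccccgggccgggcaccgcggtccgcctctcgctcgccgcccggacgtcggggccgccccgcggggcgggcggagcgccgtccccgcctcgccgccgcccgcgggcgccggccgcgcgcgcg
Second (CEBP match), chr1:121484773-121484922: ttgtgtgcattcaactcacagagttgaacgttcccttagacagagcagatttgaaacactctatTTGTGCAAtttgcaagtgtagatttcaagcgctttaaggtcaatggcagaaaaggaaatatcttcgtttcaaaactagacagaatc
Next (TEAD match), chr6:58777788-58777937: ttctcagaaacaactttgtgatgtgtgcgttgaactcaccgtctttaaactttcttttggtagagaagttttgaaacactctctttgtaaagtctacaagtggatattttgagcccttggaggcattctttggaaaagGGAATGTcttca
Up, near ZMAT2, chr5:140105757-140105906: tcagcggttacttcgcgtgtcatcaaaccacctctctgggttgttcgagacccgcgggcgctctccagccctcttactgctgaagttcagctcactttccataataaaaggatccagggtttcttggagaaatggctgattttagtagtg
Up, intron of GALNT2, chr1:230241139-230241288: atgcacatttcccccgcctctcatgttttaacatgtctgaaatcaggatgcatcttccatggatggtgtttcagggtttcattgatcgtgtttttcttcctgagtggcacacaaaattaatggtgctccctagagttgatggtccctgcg
Up, distal to SOX9 (AP-1 matches), chr17:70417537-70417686: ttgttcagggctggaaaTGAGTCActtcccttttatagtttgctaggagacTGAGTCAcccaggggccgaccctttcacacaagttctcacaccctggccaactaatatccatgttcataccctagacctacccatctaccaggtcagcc
Down, 607 kb from BCHE (AP-2 match), chr3:166162441-166162590: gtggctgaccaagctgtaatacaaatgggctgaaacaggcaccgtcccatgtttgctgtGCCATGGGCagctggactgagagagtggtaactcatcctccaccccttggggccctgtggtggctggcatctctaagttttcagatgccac
Down, 387 kb from SGCD, chr5:154909040-154909189: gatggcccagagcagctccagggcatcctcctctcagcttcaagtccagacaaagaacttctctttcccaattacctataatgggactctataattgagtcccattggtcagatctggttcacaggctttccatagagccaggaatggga
Down, intron of ATP10B, chr5:160264970-160265119: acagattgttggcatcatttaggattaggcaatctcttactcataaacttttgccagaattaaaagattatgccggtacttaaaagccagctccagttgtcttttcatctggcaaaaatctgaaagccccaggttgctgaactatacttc
p53 match, intron of HFM1, chr1:91852965-91853114: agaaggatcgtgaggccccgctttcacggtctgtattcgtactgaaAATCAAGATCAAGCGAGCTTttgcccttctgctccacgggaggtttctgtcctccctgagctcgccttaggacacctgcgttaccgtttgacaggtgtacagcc

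AP-1 was the most frequent of the 15 motifs in the members. The sequence TGACTCA, which AP-1 binds, was present in the window of 481 of 2390 members (20.1%, 95% Wilson interval 18.6 to 21.8), against 3.14% for the same letters read backwards, the control used for every motif except SP, whose letters read the same backwards. Among the 2700 promoter regions open in all 4 libraries the share was 2.33%, and the intervals do not touch. It was 17.4% in the 1700 distal regions gained in both G12V libraries, 19.4% in the 1183 lost from both and 15.9% over all merged regions. Among the classes compared it was highest, at 24.4% (23.5 to 25.4), in the 7637 distal regions with a peak in the replicate 2 list of both groups only, so a high AP-1 share was not particular to the members.

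RUNX (TGTGGTT) was found in 4.94% of members (4.14 to 5.88) against 1.51% reversed, and TEAD (ACATTCC) in 4.06% (3.34 to 4.93) against 1.30%. Both were above the promoter shares of 1.41% and 1.33% but near those of other distal regions. RUNX was at 4.76% in gained and 5.49% in lost distal regions, and TEAD at 4.29% and 4.06%. CEBP (TTGCGCAA or TTGCACAA) was at 1.76% against 0.167% reversed, KLF (GGGTGTGG) at 2.05% against 1.00%, and STAT (TTCCNGGAA) at 0.711% against 0.0418%. In gained and lost distal regions CEBP was at 1.53% and 1.69%, KLF at 1.06% and 1.78%, and STAT at 0.941% and 0.676%. There AP-2 was at 5.29% and 8.2%. In members AP-2 (GCCNNNGGC) was at 8.37% against 3.01% reversed. At promoters it stood at 18.6% with its reversed form at 19.1%, so at promoters the letters were no more frequent than their control. The promoter motifs were scarcer in members than at promoters. ETS (CCGGAAGT) was in 0.293%, NFY (AGCCAATC) in 0.962% and SP (GGGGCGGGG) in 2.30% of members, against 2.78%, 3.0% and 12.9% at promoters. In gained and lost distal regions ETS was at 0.176% and 0.0845%, and NFY at 0.235% and 0.93%. SP was at 0.824% and 0.423% there, below its share in members. GRHL (AACCGGTT or AACTGGTT) at 0.251% and FOX (TGTTTAC) at 2.38% did not exceed their reversed patterns, at 0.921% and 2.72%, nor did CRE (TGACGTCA) at 0.293% against 0.502%.

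CTCF matches, with 1 mismatch allowed, were in 4.14% of members (3.41 to 5.02) and 1.17% reversed. This was below the 8.59% of gained distal regions (0.647% reversed) and the 9.15% of promoters (3.56% reversed). It was above the 2.70% of lost distal regions (1.92 to 3.79, 0.254% reversed), though these 2 intervals overlap. p53 matches, with up to 3 mismatches outside the core, were in 30 members (1.26%, 0.881 to 1.79) and 0.0837% reversed, between 0.529% in gained and 7.44% in lost distal regions. No motif of the 15 was found in 1329 members (55.6%), and 200 (8.37%) held more than 1. A RUNX match accompanied 36 of the 481 AP-1 windows (7.48%) and 82 of the other 1909 members (4.30%), and a CTCF match accompanied 9 of them (1.87%) and 90 of the others (4.71%).

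**Figure D1:**
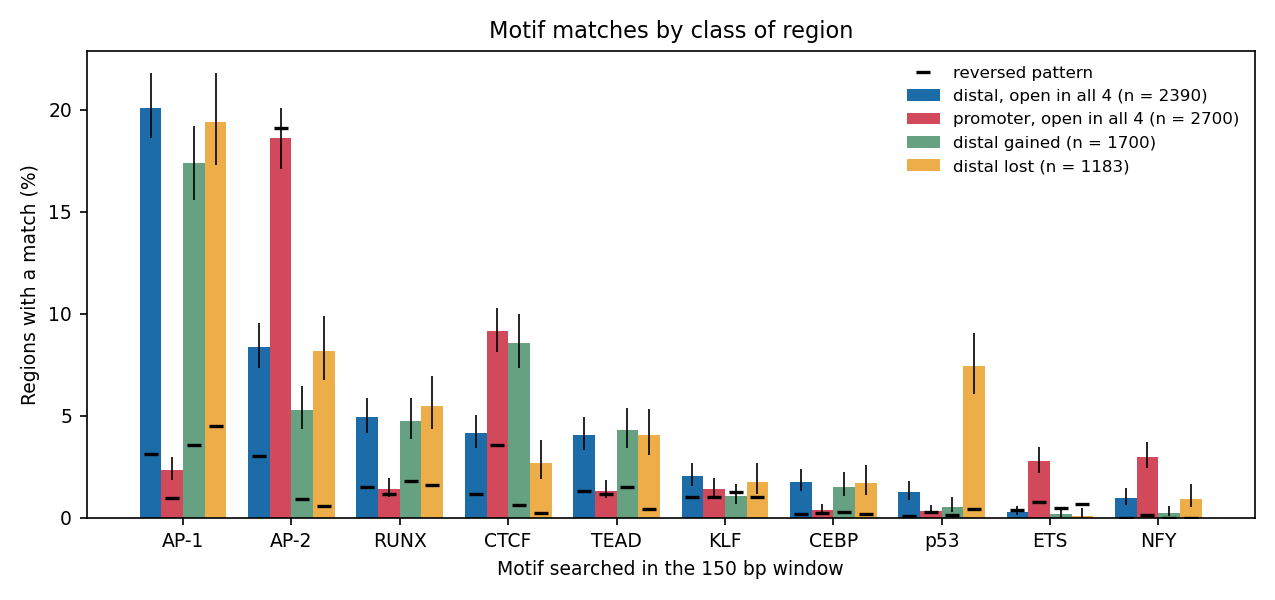
Share of regions (%) whose 150 bp window holds each motif, for 4 classes of region. Bars are shares with 95% Wilson intervals, black dashes the reversed pattern. AP-1 reached 20.1% in the distal regions open in all 4 libraries and 2.33% at promoters, while p53 stood at 1.26% there against 7.44% in lost distal regions.

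AP-1 matches did not lie at the middle of the peaks. Over 300 bp to each side of the midpoint of a library's own peak, 73.2% of the 1624 matches in members were on the lower-coordinate side in MCF10A replicate 1, and 69.2%, 71.5% and 68.0% in MCF10A replicate 2, G12V replicate 1 and G12V replicate 2. The median match lay 67 to 71 bp from the midpoint on that side, at -71.0, -67.5, -67.5 and -67.0 bp in the same order. The reversed pattern was less one-sided, at 54.3% to 59.0%. The same held for the gained distal regions (70.1%), the lost ones (69.2%) and all distal regions (70.4%), so the displacement was no property of the members. The caller had been run with a shift size of 75 bp, and its part in this displacement was not tested. With the window moved 75 bp to lower coordinates, an alternative added after the positions were seen, the AP-1 share was 24.3% (22.6 to 26.1) with 3.77% reversed. The shares of TEAD (3.89%), KLF (1.97%), SP (2.18%), GRHL and STAT were not raised by it. Those of the other motifs were somewhat higher, such as RUNX (5.65%), CTCF (4.48%) and p53 (1.51%).

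**Figure D2:**
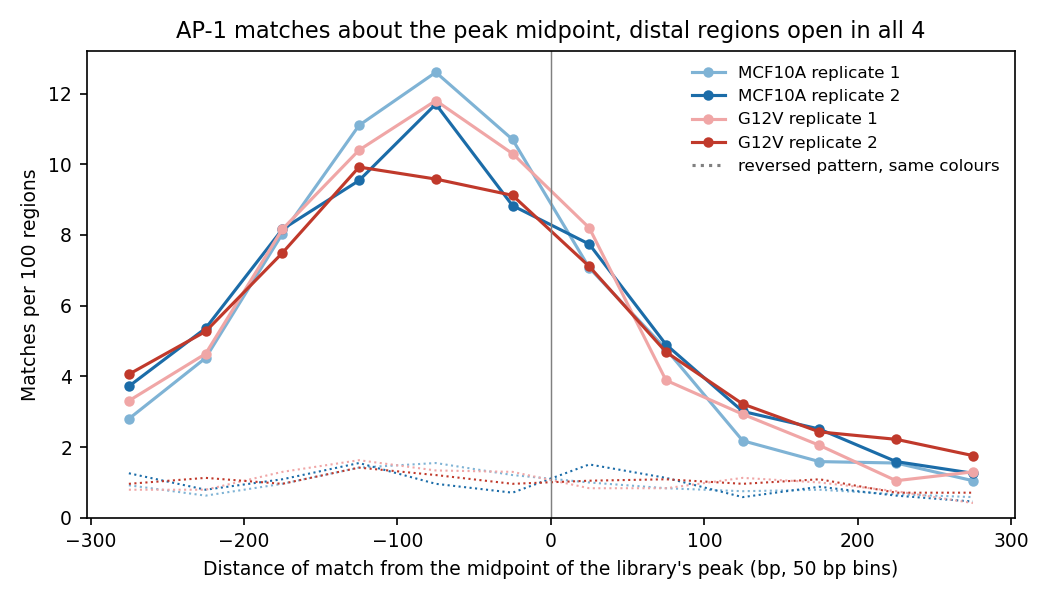
AP-1 matches per 100 members in 50 bp bins of distance (bp) from the midpoint of each library's peak; solid lines are the motif, dotted lines its reversed pattern. In MCF10A replicate 1 the bin from -100 to -50 bp held 12.6 matches per 100 regions and the mirror bin 4.77.

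The members were narrower than the promoter regions and wider than distal regions seen in 1 group, with median widths of 988, 1330, 627 (gained) and 616 bp (lost). Their windows had a median GC content of 48.7%, against 66.7% at promoters, and 13.8% had the base composition of a CpG island (GC over 50% and a CpG ratio over 0.6) against 82.8% at promoters, 4.06% of gained and 2.37% of lost distal regions. Most lay within genes: 974 (40.8%) in an intron of a protein-coding gene, 342 (14.3%) in an intron of a lncRNA gene, 155 in a UTR or other non-coding exon part and 36 in a coding exon of a protein-coding gene, and 827 (34.6%) between genes. These shares were close to those of all distal regions, where introns of protein-coding genes took 43.5% and intergenic sequence 35.9%. The median distance to the nearest start was 32442 bp, against 33046 bp for all distal regions, and 1957 members (81.9%) were within 100 kb of one. With the starts of all annotated transcripts in place of gene starts, 1965 regions would meet the rule.

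Members were crowded on the long arms of chromosomes 1, 5 and 8. There were 288 on 1q, 267 on 5q and 137 on 8q, which is 27.5, 20.3 and 13.8 per 10 Mb of sequenced bases, against a median of 6.27 over 41 arms and 8.22 and 6.69 on 1p and 5p. All distal regions were also denser there, with a smaller range, at 311, 234 and 236 per 10 Mb against a median of 163, and members were a larger part of the distal regions on 1q (8.84%) and 5q (8.68%) than in the whole genome (4.82%). Each list showed it: 1q, with 3.70% of the sequenced length, held 8.56%, 6.64%, 8.96% and 6.23% of the peaks of MCF10A replicates 1 and 2 and G12V replicates 1 and 2, and 5q, with 4.62%, held 7.84%, 6.07%, 8.13% and 6.02%. The shorter replicate 1 lists had the larger shares. At the other end, 22q held 2 members and 21q 5. Gains of parts of 1q, 5q and 8q are known in MCF10A. Copy number was not measured here, and its part in these densities was not tested.

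**Figure D3:**
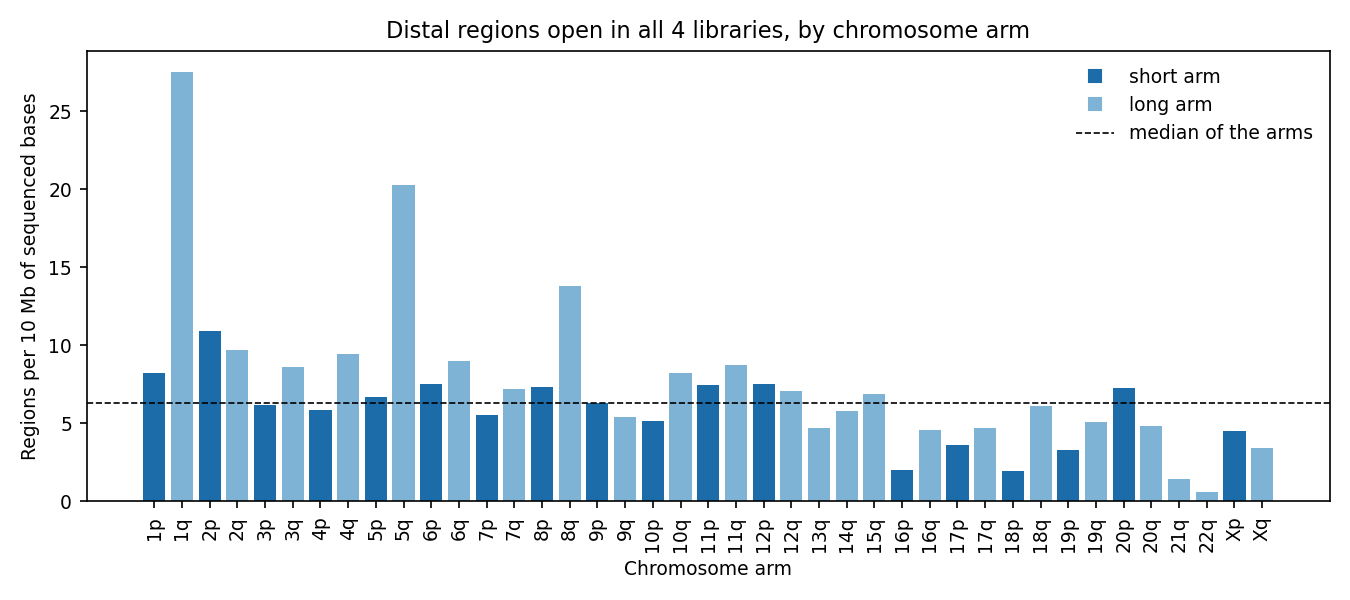
Members per 10 Mb of sequenced bases on each chromosome arm, dark bars short arms and light bars long arms, with the median of the arms as a dashed line. 1q at 27.5 and 5q at 20.3 stand above all other arms, and 8q follows at 13.8.

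The highest ranks belonged to unusual loci. The 5 members with the highest lowest list percentile (the share of a list's peaks that score no higher) were at 100.0 in all 4 lists: 3 of them, on chromosomes 21, 1 and 6, with TPTE (1163 kb away), FAM72B (646 kb) and PRIM2 (1597 kb) as nearest protein-coding genes, lay within 1 Mb of an assembly gap of 1 Mb or more, and the other 2 were in introns of PMF1, a kinetochore gene, and HFM1, a meiotic helicase gene. Those on chromosomes 1 and 6 aligned to 6 and 5 other members. A search of the whole assembly, added after the windows were seen, counted other places alike over 100 bp or more at 90% identity or above. The FAM72B window had 10, the HFM1 window 5, the PMF1 and TPTE windows 2 each and the PRIM2 window 1, while each of the 10 windows with the largest changes had 0 others. The printed windows with a CEBP, TEAD or p53 match are thus repeated sequence. Among all members, 55 lay near such a gap, 9 aligned to the mitochondrial genome and 155 to another member, and 9 of the 20 top-ranked members were in the first 2 kinds. The part of repeated sequence in these scores was not tested, and the counts of changes below are also given without the 62 members near a gap or like the mitochondrial genome. Chosen after their values were seen, the next ranks included an exon of KIFAP3 on 1q (list percentiles 99.9, 99.8, 99.8 and 99.9) and a site 48.6 kb from SLIT3, an axon guidance gene (99.3, 99.9, 99.6 and 100.0). Altogether 132 members (5.52%) were at or above percentile 90 in all 4 lists, and 270 (11.3%) were under percentile 10 in at least 1.

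How far members kept their rank was compared on the percentile of their best peak score among the 5090 regions open in all 4 libraries, called the rank percentile. Members ranked below promoters in every library, with medians of 44.6, 36.2, 42.2 and 39.1 in MCF10A replicates 1 and 2 and G12V replicates 1 and 2, against 56.0, 62.5, 56.6 and 59.6. Over members, ranks correlated at Spearman rho 0.47 between the MCF10A libraries and 0.52 between the G12V libraries. Across groups, rho was 0.60 between the replicate 2 libraries, which had the longest lists, and 0.32 between the replicate 1 libraries. These are descriptions over regions that share libraries.

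No member passed the test of a difference between MCF10A and G12V. With limma across the 5090 regions, 0 members were higher and 0 lower at an adjusted p of 0.05 (0.0% of all regions in each direction), and the smallest adjusted p was 0.733. At an unadjusted p under 0.05 there were 163 members (6.82%), 85 higher and 78 lower, against 6.13% of all regions. The median half-width of the unadjusted 95% interval of a member's change was 42.1 points, so intervals of changes below that size mostly included 0. The adjusted test asked for more: with 2 libraries a group, even a change of -87.5 points had a limma adjusted p of 0.733. The pooled SD between replicates was 19.9 points in MCF10A and 18.9 in G12V, and the change averaged over the pairs was under 10 points in 896 members (37.5%).

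Counted without a test, the groups did not overlap in 486 members ranked higher in G12V (20.3%, against 18.7% of all 5090 regions) and in 418 ranked lower (17.5%, against 18.6%). These shares are near the background. Percentiles within the whole lists moved the split to 541 higher and 198 lower, from 53.8% to 73.2% higher, where the background was 18.5% and 6.94%. On that scale the median region of all 5090 shifted by 2.85 points. With regions near gaps or like the mitochondrial genome left out before ranking, the counts were 480 and 415. The changes in the replicate 1 libraries and in the replicate 2 libraries had the same sign in 58.4% of members, 734 up in both and 661 down in both, and in 55.2% of the promoter regions. Their Spearman rho over members was 0.25.

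**Figure D4:**
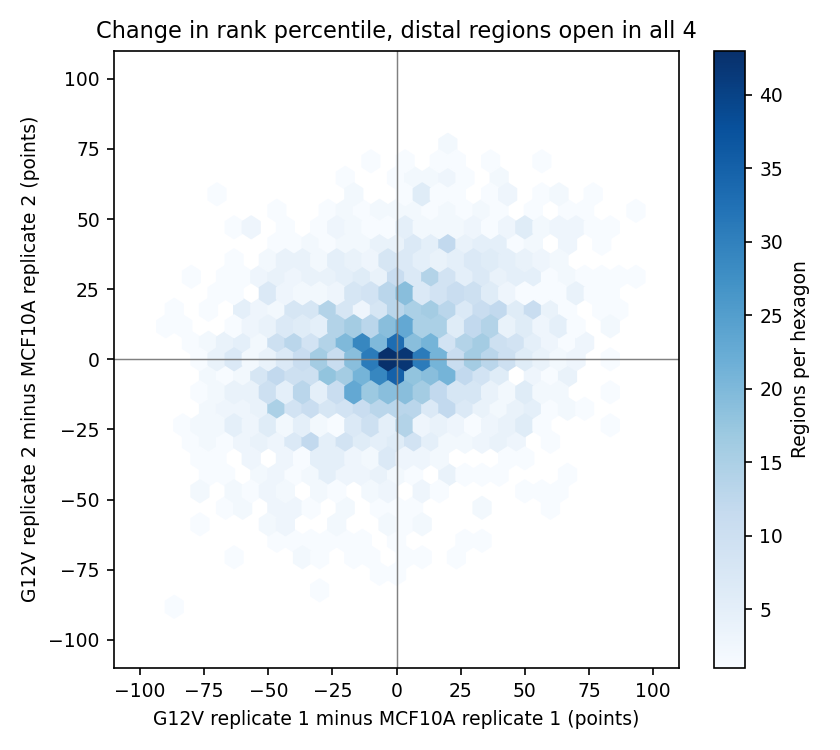
Change in rank percentile (points, G12V minus MCF10A) of each member in the replicate 1 libraries (horizontal) and the replicate 2 libraries (vertical), shaded by regions per hexagon. The densest hexagons lie near 0 in both, with 734 in the upper right and 661 in the lower left quadrant.

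The largest declines were at 2 intergenic sites on 3q and 5q, chosen for their change and so given as descriptions beside the fit. A region at chr3:166161926-166163132, 607 kb from BCHE, which encodes butyrylcholinesterase, had MACS scores of 195.31 and 386.97 in MCF10A and 53.37 and 55.78 in G12V. Its rank percentiles were 96.6 and 91.9 against 12.1 and 1.41, so the groups lay far apart. The change was -87.5 points (SE 24.0, 95% interval -138 to -36.7, limma adjusted p = 0.733). A region at chr5:154908639-154910280, 387 kb from SGCD, a sarcoglycan gene, had rank percentiles of 99.4 and 96.2 in MCF10A and 38.1 and 24.5 in G12V, a change of -66.4 (SE 19.5, adjusted p = 0.733). These 2 passed an adjusted p of 0.05 on 2 other scales, at 0.0139 for both on inverse normal ranks and at 0.00562 and 0.00498 on quantile-normalized log2 scores.

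An intron of the chemokine-like gene GPR15LG on chromosome 10 (chr10:85938598-85939664), named after its values were seen, had rank percentiles of 96.1 and 99 in MCF10A and 55.3 and 37.9 in G12V. It passed on quantile-normalized log2 scores and when either G12V library was left out, with limma adjusted p between 0.00976 and 0.0337, and had an adjusted p of 0.733 in the fit reported. In all, 9 members passed under at least 1 alternative, and each was lower in G12V and had MCF10A rank percentiles above 90. The other 3 of the 5 largest non-overlapping declines were in an intron of ATP10B, a phospholipid flippase gene (89.0 and 66.9 against 14.9 and 9.76), 253 kb from GRAMD2B (80.9 and 61.7 against 3.36 and 15.0, with an AP-1 match) and 37.8 kb from PPP2R3A, a phosphatase subunit gene (92.6 and 73.1 against 18.3 and 27.2).

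The largest rises began at low ranks in MCF10A. A region at chr5:140105355-140106465, in an intron of a lncRNA gene 27.1 kb from ZMAT2, had MACS scores of 47.31 and 104.66 in MCF10A and 235.69 and 377.65 in G12V, and rank percentiles of 5.73 and 22.2 against 97.1 and 74.5. The change was 71.8 points (SE 24.3, 95% interval 20.2 to 123, limma adjusted p = 0.733). In an intron of GALNT2, an enzyme that starts O-glycosylation, rank percentiles were 11.5 and 22.9 against 90.7 and 82.3. It was 1 of 3 members within a 39.9 kb stretch there. A region 300 kb from SOX9, which encodes a transcription factor of epithelial progenitors, was at 5.50 and 0.825 in MCF10A and at 89.7 and 51.1 in G12V, and its printed window holds AP-1 matches at 2 places. The 2 others were 97.8 kb from HAO1 (7.38 and 11.4 against 83.5 and 64.7, with a RUNX match) and 214 kb from COPS8, a signalosome subunit gene (37.7 and 18.1 against 95.5 and 89.5). None of these 5 rises passed an adjusted p of 0.05 on any scale.

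**Figure D5:**
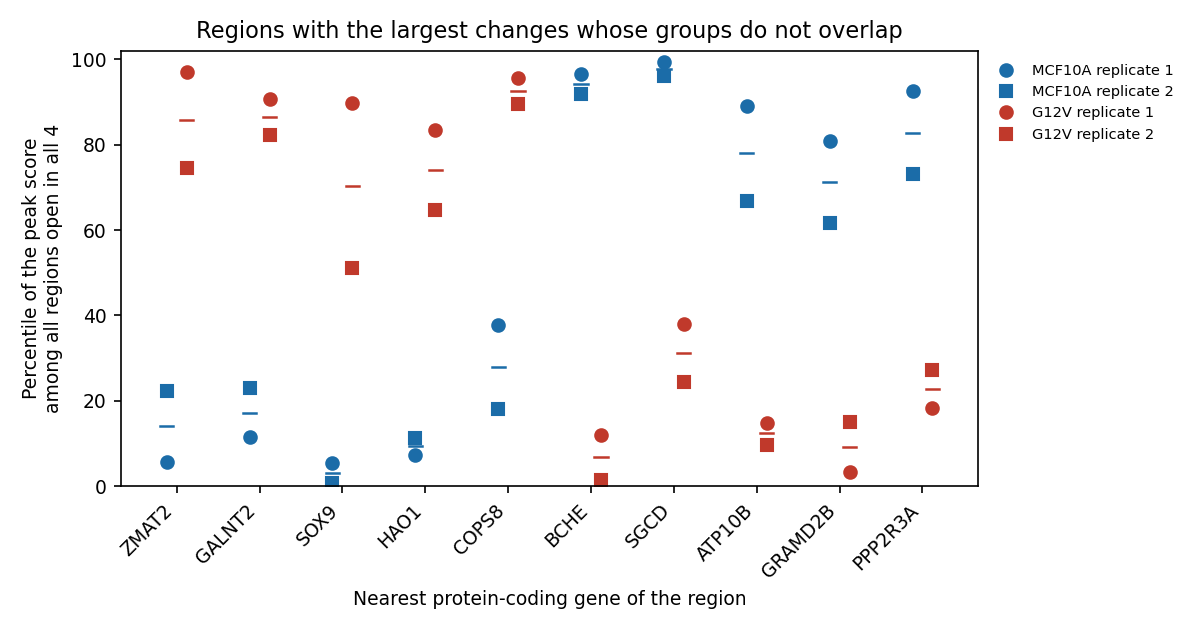
Rank percentile of the 10 members with the largest changes whose groups do not overlap, 5 higher and 5 lower in G12V, named by the nearest protein-coding gene; points are libraries and short lines group means. In the region 607 kb from BCHE the MCF10A libraries stood at 96.6 and 91.9 and the G12V libraries at 12.1 and 1.41.

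No motif of the 15 gave a rank difference between groups that could pass a test at this size. For AP-1 members, the median rank percentile less that of other members was 1.45 and 1.59 in MCF10A and -2.99 and 2.42 in G12V, a difference of -1.81 points (exact two-sided permutation test over the 4 libraries, p = 1.00, where 0.333 is the smallest p that 2 against 2 can give). Of AP-1 members, 91 (18.9%) were higher without overlap and 89 (18.5%) lower. CTCF members ranked below the others in each library, at -5.15, -6.45, -5.03 and -12.1 points. The change between groups was -2.76 points (exact permutation p = 1.00), and with 4 libraries this test could not have detected one. The 30 p53 members ranked above the others by 8.51 and 8.36 points in MCF10A, by 5.00 in G12V replicate 1, and below them, at -10.6, in G12V replicate 2, a change of -11.2 points (exact permutation p = 0.333, 0.832 adjusted over 15 motifs). It was -3.44 without G12V replicate 2, -19.07 without G12V replicate 1 and -5.56 by percentile within the whole list. Of these 30, 1 was higher without overlap (3.33%) and 6 lower (20.0%), against 18.7% and 18.6% of all regions. KLF members went the other way, from -6.27 and -4.69 in MCF10A to 6.17 and 3.44 in G12V (10.3 points, exact permutation p = 0.333, 0.832 adjusted). With a 300 bp window the KLF difference was 1.72 points.

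The share of members without overlap varied by chromosome arm about the 18.7% higher and 18.6% lower of all regions, and the arms given were chosen after their values were seen. On 12p, 0 of 26 members were higher without overlap and 10 lower (38.5%), with a median change of -11.4 points that held in both pairs, at -6.25 and -14.2. On 16q, 2 of 20 were higher and 8 lower, with medians of -4.98 and -9.83. On 17q, 9 of 26 were higher (34.6%) and 6 lower (23.1%), with medians of 1.47 and 1.68. On 19p, 0 of 8 were higher and 4 lower, with medians of -16.2 and -31.0, and on 19q, 0 of 16 were higher and 3 lower, with medians of 8.86 and -28.4. On 5q, 73 of 267 members were higher (27.3%) and 43 lower (16.1%), with medians of 2.67 and 4.53. On 1q the shares were 22.6% and 13.5%. No test was made of these groups. The median change differed little with the GC content of the windows, at -0.23, 0.04, 0.15 and 1.16 points for windows of GC under 40%, 40 to 50%, 50 to 60% and over 60%.

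The members had 1688 different nearest protein-coding genes, of 20098, and 1275 of these genes had 1 member. The most were next to RP11-685N3.1 on chromosome 2 (12) and ZNF33B on chromosome 10 (9), and all 21 of these lay near an assembly gap or aligned to the mitochondrial genome, including runs of 8 members in 47.7 kb and 6 in 36.9 kb. ZNF608, a zinc finger gene on 5q, came next with 8, between 5.30 and 735 kb from its start, with a median change of 13.8 points. IRS1, the adaptor of the insulin and IGF1 receptors, had 7 members, of which 4 were higher in G12V without overlap and 0 lower, where 18.7% and 18.6% of all regions were, with a median of 24.2. By percentile within the whole list 3 were higher and 0 lower. The one 149 kb from its start had rank percentiles of 9.62 and 27.4 in MCF10A and 63.8 and 48.2 in G12V, while the one 7.35 kb away had 70.9 and 54.1 against 39.4 and 66.5. KIF26B (7), a kinesin gene, had 2 higher and 2 lower, RAPGEF2 (7), an exchange factor for the RAS relative RAP1, 1 and 2, and ZP4 (7) 2 and 1.

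AGPAT4, C1orf100 and DUSP10 had 6 each. DUSP10, a phosphatase that acts on the stress kinases JNK and p38, had 0 higher and 1 lower, against 18.7% and 18.6% of all regions. The median change of its 6 was -10.8 points. MYC, the growth-promoting transcription factor on 8q, also had 6 but came after these in alphabetical order and was named after its values were seen. Of its 6, all between 65.9 and 441 kb from the start, 3 were higher without overlap and 0 lower, against 18.7% and 18.6% of all regions. The counts were 1 and 0 by percentile within the whole list, against 18.5% and 6.94% of all regions. The median change of the 6 was 14.6 points, and the highest, 39.8 points, was from 3.76 and 9.88 in MCF10A to 42.5 and 50.8 in G12V. By percentile within the whole list the declines counted at RAPGEF2, ZP4 and DUSP10 were not without overlap (0 lower at each, against 6.94% of all regions). On that scale 0, 2 and 1 members were higher at these 3 genes, against 18.5% of all regions. The direction counted at DUSP10 thus depended on the scale. None of the regions at these genes passed the adjusted threshold.

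Of all 20098 protein-coding genes, 2547 (12.7%) had a member within 100 kb of their start. Among AP-1 subunits it was 3 of 14: JUN with 4 members, ATF3 with 2 and BATF3 with 1 that it shared with ATF3. At JUN, 2 of the 4 were higher without overlap, where 18.7% of all regions were. The clearest, 99.1 kb away, was at 12.1 and 0.648 in MCF10A and 66.3 and 35.5 in G12V. At ATF3, a stress-induced subunit, 1 of the 2 was lower, where 18.6% of all regions were, from 87.3 and 55.0 to 12.1 and 43.9. These counts are small and were not tested. FOS, FOSB, FOSL1, FOSL2, JUNB and JUND had none.

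Among RAS-ERK feedback genes and EGF receptor ligands it was 4 of 19, with 7 members. Of these 7, 2 were higher and 5 lower without overlap, against 18.7% and 18.6% of all regions. Their median change was -18.4 points against 0.07 over all members. By percentile within the whole list the counts were 1 higher and 0 lower, against 18.5% and 6.94% of all regions. The declines thus rest on the ranking among regions open in all 4 libraries. The list is small and was not tested. DUSP1, a MAP kinase phosphatase, had 4, and they were split: 55.2 kb from its start the ranks went from 5.01 and 29.5 to 55.5 and 67.2, and 97.2 kb away from 6.24 and 14.3 to 87.1 and 56.0, whereas 36.9 kb away they went from 2.42 and 78.9 to 0.206 and 1.36 and 89.3 kb away from 38.4 and 8.23 to 3.12 and 6.78. The single members at DUSP5, an ERK phosphatase (62.9 and 63.1 against 50.2 and 37.6), SPRED2, an inhibitor of RAS to RAF signalling (21.2 and 25 against 5.13 and 6.82), and EGFR, the receptor itself (64.9 and 37.2 against 29.2 and 28.7), were among the lower ones in rank percentile. None of the 7 passed the adjusted threshold.

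Adhesion and matrix genes had the largest share with a member among the lists, 7 of 19 (36.8%, 95% Wilson interval 19.1 to 59.0), each with 1. Over all protein-coding genes the share was 12.7%. The lists were chosen with earlier results of these data known, and the difference was not tested. The ranks at ITGB1, the common integrin beta subunit, were 81.0 and 76.3 in MCF10A and 31.2 and 50.7 in G12V, and at PLAUR, the urokinase receptor, 51.7 and 66.9 against 4.21 and 43.2. Those at ITGB6 (18.8 and 50.2 against 66.6 and 53.4) and at FN1, fibronectin (26.6 and 47.9 against 61.0 and 61.7), were higher in G12V. EMT regulators had 3 of 14, with TWIST2 at 28.4 and 10.5 against 61.6 and 64.0 and ZEB2 at 66.3 and 49.4 against 26.2 and 34.7, in opposite directions, and 2 members at TGFB2 whose groups overlapped. By percentile within the whole list no decline without overlap was left among the adhesion, EMT or AP-1 subunit genes (0 lower in each list). On that scale 6.94% of all regions were lower. The members higher without overlap numbered 2 of 7, 1 of 4 and 2 of 6 in these lists, where 18.5% of all regions were. YAP and TEAD genes had 2 of 15, AMOTL1 and AMOTL2, and p53 targets 1 of 15, ZMAT3, an RNA-binding protein gene, at 74.6 and 62.5 against 94.9 and 92.2.

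Epithelial genes and genes of other lineages had a member nearby in equal shares. Of 20 epithelial genes, 4 (20.0%) had a member within 100 kb, and of 15 genes of blood, endothelium, muscle and neurons matched in the annotation, 3 (20.0%) did: PTPRC, CD14 and SYP. KRT5, KRT14, KRT17, CDH1, EPCAM and TP63 had none. Among the 4 were LAMB3, which encodes a subunit of the epithelial laminin 332, and the transcription factor genes KLF5 and TFAP2A. At TFAP2A, which encodes AP-2 alpha, the member 21.4 kb away was at 56.9 and 33.6 in MCF10A and 81.5 and 91.7 in G12V, and at KLF5 the ranks were 78.4 and 79.2 against 92.6 and 81.6. At LAMB3 the member 4.62 kb away went from 13.8 and 49.8 to 51.2 and 61.8. The CD14 member was the ZMAT2 region named above, which lies among several genes, so a gene within 100 kb is not thereby its target.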

How the data were processed

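MCF10A and G12V were each measured in 2 libraries. For each library the authors mapped reads by bowtie (0.12.9), retained those with a unique position, moved read starts to the transposition centre and called peaks with MACS (1.4.2) against hg19, with a tag size of 51, a shift size of 75 and a p threshold of 0.0001. The deposited score is MACS's 10 times negative log10 of p, one list per library, with no read numbers, so depth and counting errors are unknown. Scores depend on depth and were used as percentiles. Peaks on autosomes and X were merged, and starts taken from GENCODE release 44 on GRCh37 (20098 protein-coding and 18592 lncRNA genes).

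Differences in rank percentile were tested with limma (3.58.1, R 4.3.3, eBayes with trend) over all 5090 regions, Benjamini-Hochberg adjusted, threshold 0.05. Whether the replicates were separate cultures is given only by the study's description of them as biological. Similar members were found with BLAST+ (2.17.0; at least 150 bp and 80% identity, or 100 bp of mitochondrial sequence). Motifs were sought on both strands without a score matrix, and matches of different motifs could overlap. The named regions were the 5 top-ranked members, the 5 largest non-overlapping changes each way, the best-ranked match of each motif, the 10 genes nearest to most members and up to 4 genes a list. Sequences came from the GRCh37 assembly, not from reads. Some named items and sequences are not reported here. Python 3.11.15 was used, and merging, motif search and fit were tested on simulated data. The members, gene lists and motifs were chosen with earlier results of these data known. Leaving out regions near gaps or like mitochondrial DNA, counts of non-overlapping groups on other scales, the search for copies of the printed windows and the moved window were added after the data had been seen.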

Additional observations from a re-analysis of the deposited data

How the results depend on the processing

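The number of members was set by the replicate 1 lists. It fell to 1016 with the better-scoring 50% of each list, and leaving out one library gave 2441 to 4951 (4951 if MCF10A replicate 1 is dropped, 4561 if G12V replicate 1 is). The share within 100 kb of a start was 79.4% with the better-scoring 50%, 87.1% with all transcript starts and 63.8% for 50 kb. Members higher in G12V stayed at 0 under every setting run, and members lower in G12V numbered 2 with inverse normal ranks, 3 with quantile-normalized log2 scores and 0 to 6 with 1 library left out (4 without G12V replicate 1 and 6 without G12V replicate 2, where the lone library is assumed to vary like the others). With the replicate number as a block, 0 members and 0 regions of any kind passed in either direction. At an unadjusted limma p under 0.05 there were 266 of 2390 members, against 485 of all 5090 regions. The labels do not say what a replicate number marks, so the block is no pairing of cultures. By percentile within the whole list the non-overlapping declines numbered 198, against 6.94% of all 5090 regions. The rises numbered 541 on that scale, against 18.5% of all regions.

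With a 300 bp window and with the whole region, the AP-1 share was 35.4% and 58.0%, CTCF 8.12% and 19.7%, and p53 2.80% and 6.90%. AP-1 was 24.3% with the window moved by 75 bp. One mismatch more raised CTCF to 22.2%, and one fewer lowered p53 to 0.335%. The rank change of AP-1 members turned to 0.83 within replicate number 2 (replicate block) and to 0.89 without G12V replicate 1, and over the libraries left out it ran from -4.51 to 0.89. That of CTCF members turned to 0.12 within replicate number 1 and to 0.77 without G12V replicate 2, and ran from -6.28 to 0.77 over the libraries left out. The cause of these turns was not tested. The 10 named regions kept their direction in all 120 alternative values.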
